A study of Homo sapiens with 18 samples.

Results

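The genes described here are those whose normalised counts were highest when SJSA-1 cells received neocarzinostatin (NCS) and the MDM2 inhibitor MI-1061 together. A gene was a member when the mean of its 3 libraries with both agents was at least 3 times the largest of the 3 means with DMSO, MI-1061 alone and NCS alone, and was itself at least 50. Of 3074 genes, 282 (9.17%) met these limits, and 253 (8.23%) were kept after 29 were skipped by their symbol, such as SLC and ZNF genes, SFN, AREG, IL1A and IL1B. The number depends on the scaling between libraries: with trimmed-mean (TMM) factors computed over the same genes in place of the authors' scaling, the rule gave 70 genes, all of them among the 253. Such factors remove a rise that most of these genes share. Below, both agents means NCS with MI-1061. The members were chosen on the DMSO, MI-1061, NCS and NCS with MI-1061 libraries, and their values there are given as a description, without a test.

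SJSA-1 is an established human osteosarcoma line with an amplified MDM2 gene. Its cells were held in DMSO or in NCS at 1 µg/mL for 72 h, with the treatment renewed after 48 h. For the final 24 h a vehicle, MI-1061 or MD-224, a degrader of MDM2, was added, each compound at 1 µM. Poly(A) RNA was sequenced from 6 groups of 3 libraries: DMSO throughout, MI-1061 alone, MD-224 alone, NCS alone, the combination of NCS with MI-1061, and that of NCS with MD-224. All groups share 1 cell line and the DMSO vehicle. The labels do not say that replicates came from separate cultures, so p-values measure only the spread between these libraries, which may be technical. In RNA from whole cultures, fewer cells of a kind and less RNA per cell cannot be told apart.

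As background, NCS is an enediyne antibiotic that cuts DNA, and the kinases that sense the breaks phosphorylate p53 and its negative regulator MDM2. MDM2 is a ubiquitin ligase that covers the activation domain of p53 and marks p53 for the proteasome. MI-1061 occupies the pocket of MDM2 that holds p53, whereas MD-224 brings the cereblon ubiquitin ligase to MDM2 so that MDM2 is degraded. p53 is a transcription factor whose targets include genes of cell-cycle arrest, repair, metabolism and death, and breaks in DNA also activate NF-kB.

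The table is a selection: the lowest ratio of the NCS with MI-1061 mean to the DMSO mean in it was 1.75. The counts of members are therefore read beside the same counts over the 3074 listed genes. Normalised counts of the listed genes summed to between 4594460 and 17252600 per library, lowest with DMSO and highest with NCS and MI-1061, and these sums are not sequencing depths. Reads were recovered for 13 libraries, with 4490870 to 10535800 reads over the listed genes. None of the 13 was a library with NCS and MI-1061, so this range does not cover that group. The members made up 3.02% ± 0.197 (SD, n = 3) of the listed sum with DMSO, 2.21% ± 0.192 with MI-1061, 2.85% ± 0.0868 with MD-224 and 3.28% ± 0.0956 with NCS. They made up 7.49% ± 0.226 with both agents, and 4.31% ± 0.386 after NCS with MD-224. Replicate 2 was the highest of the 3 NCS with MI-1061 libraries for 168 members (66.4%), against 43.2% of all listed genes. The share was 64.8% of members against 46.7% with MI-1061 alone, and 53.8% against 43.1% with MD-224 alone. It was 38.3% against 34.8% with DMSO, 39.5% against 37.2% with NCS, and 26.5% against 26.5% with NCS and MD-224.

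The fold of the NCS with MI-1061 mean over the largest of the other 3 means had a median of 4.06 among the members and of 1.42 among the 2751 genes with a mean of at least 50. It ran from 3.001 to 29.8, was at least 5 in 82 members and at least 10 in 9. Just inside the limit lay ASB16 (3.001), AOX1 (3.002) and MUC3A (3.006), and just outside it VPS37D (2.999), CDH3 (2.994) and MAP3K9 (2.984). The largest of the other means was that of MI-1061 for 141 members, of NCS for 99 and of DMSO for 13. In 248 members all 3 libraries with both agents lay above all 9 of the other groups, and in 108 of them each was at least 3 times each of the 9. Over all listed genes 51.6% had no overlap of this kind, and since the rule used these libraries nothing is read from the difference.

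RGAG1 and PLCXD2 headed the order. The largest fold belonged to RGAG1 (current symbol RTL9, chromosome X, 110358848 to 110456334, GRCh38.p14), a gene derived from a retrotransposon Gag. Its normalised counts, in the order of replicates 1, 2 and 3 here and below, were 17.5, 30.8 and 22.5 with DMSO, 72.03, 108 and 61.5 with MI-1061 and 74.6, 73.4 and 83.1 with NCS. With NCS and MI-1061 they were 2273, 3004 and 1919, against 29.8, 56.7 and 8.38 with MD-224 and 181, 171 and 126 with NCS and MD-224. Every library with both agents was far above all 15 others, without overlap. PLCXD2 (chromosome 3, 111674676 to 111727007), which carries a phospholipase C catalytic domain, followed with 23.7-fold over the largest other mean. It was at 44.9, 48.1 and 53.2 with DMSO, 126, 93.5 and 61.5 with MI-1061 and 92.2, 93.96 and 95.2 with NCS, at 2314, 2373 and 1978 with NCS and MI-1061, and at 60.8, 32.2 and 20.9 with MD-224 and 516, 222 and 319.97 with NCS and MD-224. Again the 3 libraries with both agents stood apart from all the others, and NCS with MD-224 came next.

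PTPN22, a tyrosine phosphatase that restrains antigen receptor signalling in lymphocytes, and SH2D2A, a T-cell adaptor protein, were the next in order at 18.7-fold and 18.02-fold. PTPN22 (chromosome 1, 113813811 to 113871759) was at 103, 138 and 71.6 with DMSO, 181, 182 and 99.9 with MI-1061 and 163, 274 and 202 with NCS. It reached 3159, 5555 and 3236 with NCS and MI-1061 and stood at 81.5, 151 and 85.9 with MD-224 and 695, 610.4 and 483 with NCS and MD-224. SH2D2A (chromosome 1, 156806243 to 156816848) was at 33.9, 12.5 and 18.4 with DMSO, 84.9, 134 and 47.6 with MI-1061 and 62.8, 60.8 and 56.99 with NCS. It reached 1269, 2217 and 1323 with both agents and stood at 9.18, 23.2 and 16.8 with MD-224 and 204, 104 and 218 with NCS and MD-224. In both genes replicate 2 was the highest of the 3 libraries with NCS and MI-1061, and the lowest of the 3 was still above every library of the other 5 groups. CRYAB (chromosome 11, 111908564 to 111923740), the small heat-shock protein alpha-B crystallin, came next with 17.3-fold. Its counts were 54.7, 42.3 and 47.1 with DMSO, 162, 223 and 219.8 with MI-1061 and 279, 329 and 362 with NCS, then 3649, 7532 and 5618 with both agents, and 96.4, 138 and 103 with MD-224 and 707, 578 and 409 with NCS and MD-224.

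**Figure D1:**
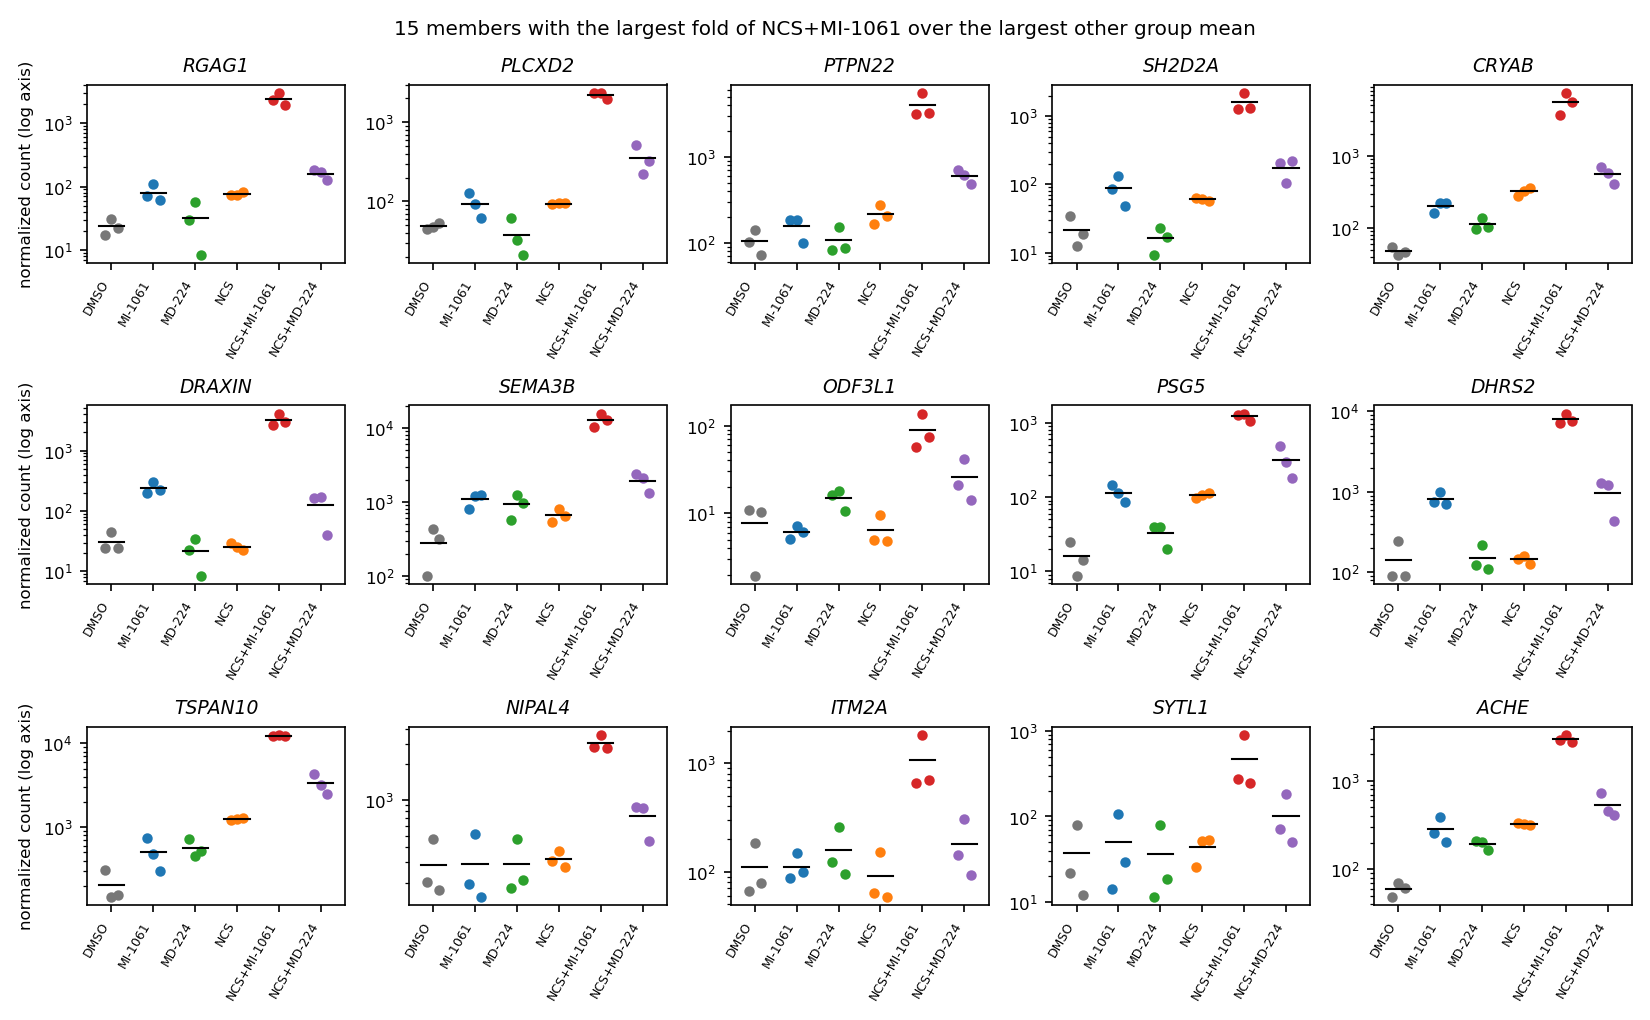
Normalised counts (log axis) of the 15 members with the largest fold over the largest other group mean, in 6 groups on the horizontal axis. Points are libraries and bars are group means of 3. In each panel the NCS with MI-1061 libraries lie above the 9 libraries with DMSO, MI-1061 or NCS, which the choice of members favours, and RGAG1 has the largest fold at 29.8.

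The working name of these genes, genes that need both agents, did not hold for all of them. Taking a group mean of at least 2 times that of DMSO as a response, 90 members responded to neither agent alone, 52 to MI-1061 alone, 30 to NCS alone and 81 to each of the 2 agents by itself. The 133 members at least 2-fold higher with MI-1061 are 52.6%, beside 49.5% of all listed genes, and the 111 at least 2-fold higher with NCS are 43.9%, beside 30.1%. The median fold over DMSO was 2.10 with MI-1061 (1.97 over all listed genes), 1.74 with NCS (1.56) and 10.9 with both (2.997). It was 5.59 for NCS with MI-1061 in the members that answered to neither agent, 12.8 and 9.89 in those that answered to MI-1061 or NCS only, and 33.6 in those that answered to each. The rule sets part of this order, since a higher single mean raised the level that a member had to reach. Over the largest other mean the median folds were 3.84, 4.14, 3.98 and 4.45 in the same order. Because many members responded to an agent alone, they are called here the genes highest with both agents, and the word need is not used.

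**Figure D2:**
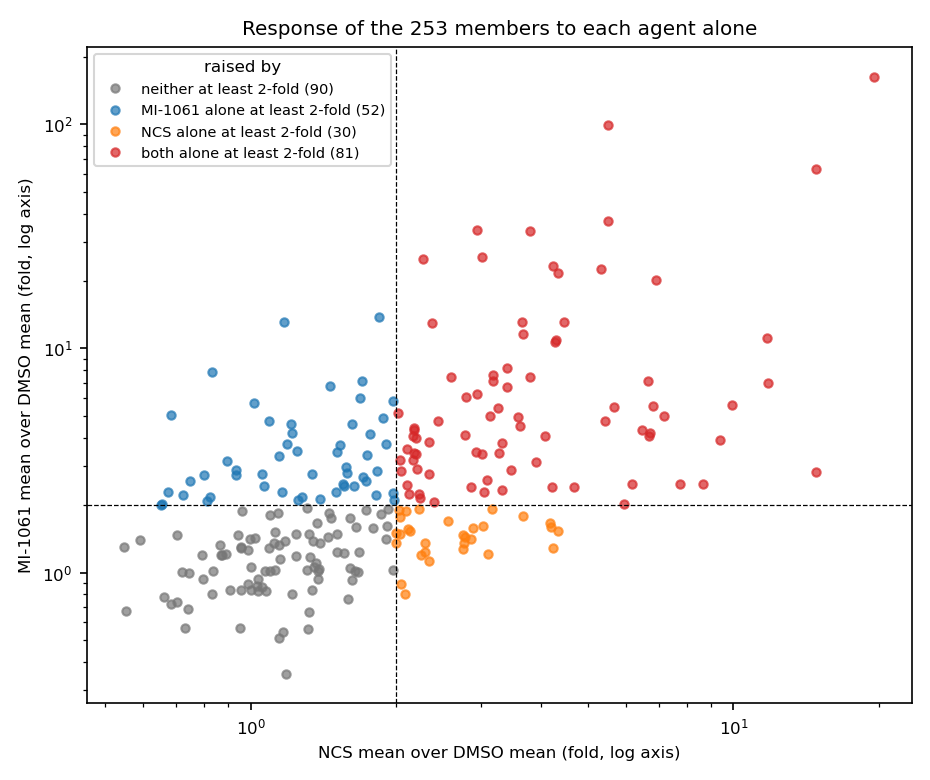
Fold of the MI-1061 mean over the DMSO mean (vertical, log axis) against fold of the NCS mean over the DMSO mean (horizontal, log axis) for the 253 members, each a point. Dashed lines mark 2-fold, and 81 members lie above both lines, 90 below both.

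Among the 90 with no 2-fold response to an agent alone was TP53I11, named for its induction by p53. It was at 3629, 4026 and 4898 with DMSO, 3596, 6467 and 5023 with MI-1061 and 3586, 3231 and 4059.9 with NCS, and at 28757, 42829 and 31492 with both agents. The 9 libraries without the combination lay between 3231 and 6467, so neither agent by itself set this gene apart from DMSO. FLNC, the muscle-type filamin that cross-links actin, was at 19353, 5764 and 7007 with DMSO, 20039, 16370.4 and 11097 with MI-1061 and 16893, 12118 and 13449 with NCS and at 141134, 112913 and 126774 with both. AMOTL1, an angiomotin that binds the YAP co-activators at cell junctions, was at 6065, 5109.9 and 6233 with DMSO, 3742, 4492 and 4676 with MI-1061 and 4153, 3831 and 4286 with NCS and at 22930.4, 25965 and 22965 with both. For AMOTL1 the means with MI-1061 and with NCS were below that of DMSO, yet the mean with both was 4.13 times it. SDC1, the heparan sulphate proteoglycan syndecan, had a lower mean with NCS than with DMSO in the same way, with 8168, 6868 and 8204 with DMSO, 8874, 11283 and 10008 with MI-1061 and 4677, 3985 and 4067 with NCS, and 36702, 37011 and 37103 with both.

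At the other end were members already high with MI-1061. MYH16, a jaw-muscle myosin gene that carries an inactivating frameshift in humans, was at 2.19, 9.61 and 4.09 with DMSO, 259, 839 and 486 with MI-1061 and 23.5, 45.8 and 18.2 with NCS and at 1647, 2121 and 1509 with both. HES2, a basic helix-loop-helix repressor, was at 4.38, 7.69 and 2.05 with DMSO, 459, 1180.02 and 661 with MI-1061 and 68.7, 107 and 101 with NCS and at 3046, 4173 and 3359.9 with both. RRAD, a Ras-related GTPase that holds back calcium channels, was at 37.2, 19.2 and 20.5 with DMSO, 943, 2308 and 1632 with MI-1061 and 341, 392 and 408 with NCS and at 5299, 6262 and 4826 with both. In these genes each agent alone gave 3 libraries above all DMSO libraries, and MI-1061 gave more than NCS. MYH16 and HES2 were chosen after their values were seen.

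The level that the 2 single responses would give if their folds multiplied was computed for every member as the MI-1061 mean times the NCS mean over the DMSO mean. The mean with both agents was above that level in 237 members, at least 2 times it in 185, and below it in 16. Among the 16 below it were RRAD (0.226 of that level), EGR2 (0.676) and DCDC2C (0.907). All 16 responded at least 2-fold to each agent alone, which the rule fixes. A member can be below that level only where both single folds are above 3. No member could be below the level that the sum of the 2 single increments would give. That level is at most 2 times the larger single mean, and the rule asked for 3 times it, so nothing is read from it. Because members had to exceed each single agent 3-fold, the counts against the product level are also set in part by the rule. They were not made over all listed genes.

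**Figure D3:**
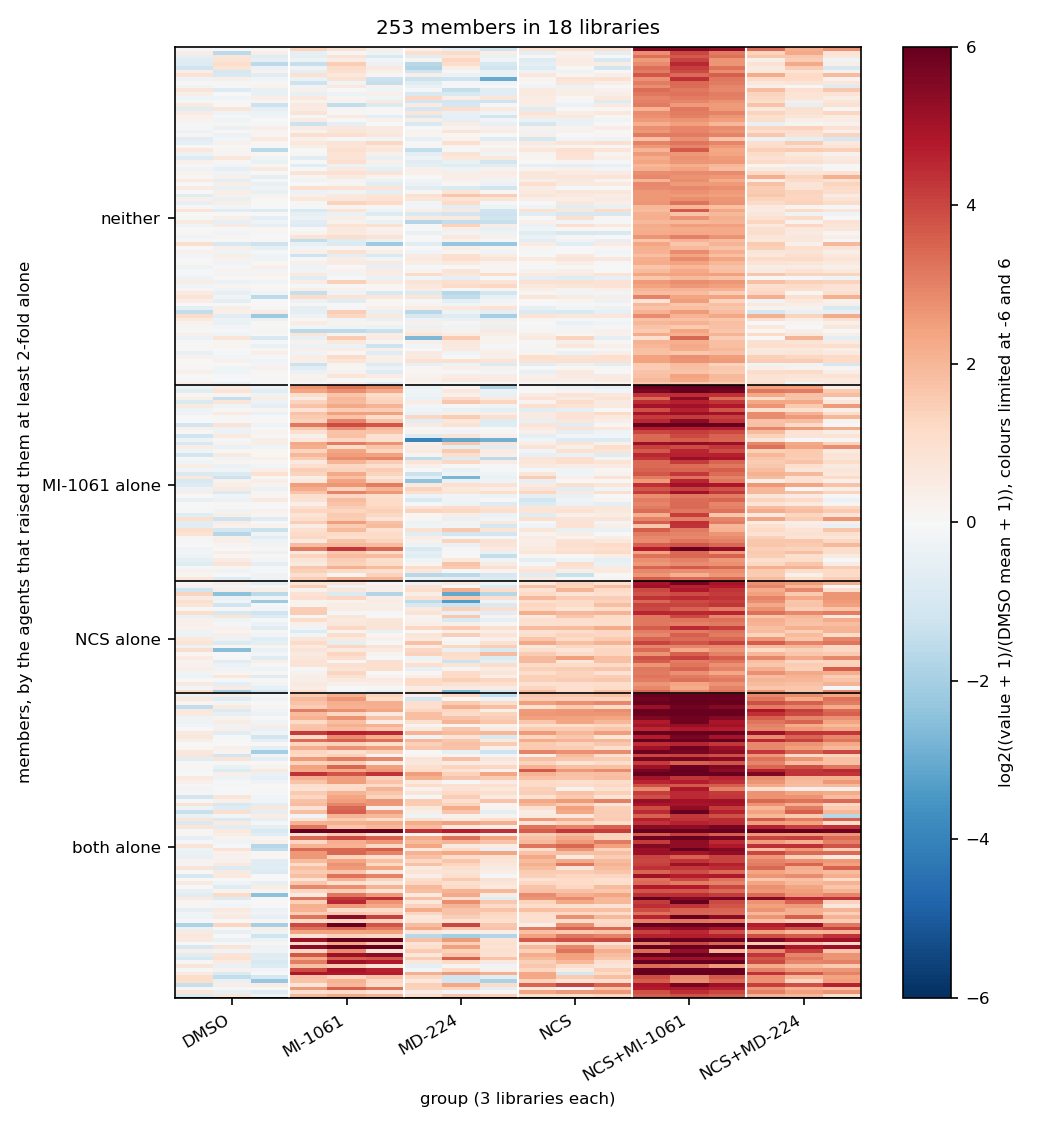
Log2 of (normalised count + 1) over (DMSO mean + 1) for the 253 members (rows) in 18 libraries (columns, 3 a group), with colours limited at -6 and 6 and members sorted into the 4 response groups. NCS with MI-1061 is the darkest band in all 4, which the choice of members favours. The MI-1061 and NCS bands differ between the 4 groups because the sorting used those values, and both are raised in the 81 members that responded to each.

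Promoters of the members are shown for those that hold a searched motif close to the start site. RefSeq's promoter table for GRCh38.p14 gives 250 bases before and 50 after a gene's first listed start, and matched 183 members, 2091 other listed genes and 27305 genes in all. The AP-1 motif TGANTCA was in 14 member promoters (7.65%), in 7.27% of the other listed genes and in 7.76% of all promoters. A p53 half-site was in 17 (9.29%), against 6.504% and 6.541%, and a full p53 site with a spacer of up to 13 bases was in none of the 183, in 2 other listed promoters and in 8 of all. The kappa-B consensus was in 30 (16.4%), against 13.2% and 10.8%, TATAAA in 17 (9.29%), against 9.28% and 11.95%, and TGACGTCA in 6 (3.28%), against 3.06% and 1.98%. A heat-shock element (GAA, TTC and GAA, each 2 bases apart) was in 1 (0.546%), against 0.526% and 0.487%. Both strands were searched, a p53 half-site can overlap the other motifs, and the median GC content was 65.3% in members, 64.7% in other listed genes and 58.3% in all. Matches are descriptions of these windows, and no binding was measured.

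TSPAN10, a tetraspanin, is shown because its window holds the AP-1 motif 2 times and its 3 libraries with both agents were almost equal. The same window holds a p53 half-site at base -196 from the listed start, left in lower case below. Another begins at the start itself, outside the printed bases. The 250 bases before its listed start (chr17:81642055-81642304, plus strand, inside the annotated gene at chromosome 17, 81637196 to 81648755) read as follows, with the 2 AP-1 motifs in capitals.
TSPAN10: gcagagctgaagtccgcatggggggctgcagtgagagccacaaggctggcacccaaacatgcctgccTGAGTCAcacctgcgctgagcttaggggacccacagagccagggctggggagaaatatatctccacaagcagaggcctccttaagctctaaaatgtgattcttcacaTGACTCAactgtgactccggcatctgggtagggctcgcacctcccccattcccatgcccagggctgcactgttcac
The next pair are the promoters of DHRS2, a short-chain dehydrogenase with 9.85-fold over its largest other mean, and of KITLG, the ligand of the KIT receptor and a known p53 target. Both have TATAAA, in capitals, starting 29 bases before the start site (chr14:23630056-23630114, plus strand, and chr12:88580472-88580530, minus strand).
DHRS2: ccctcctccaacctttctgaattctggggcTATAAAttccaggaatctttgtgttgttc
KITLG: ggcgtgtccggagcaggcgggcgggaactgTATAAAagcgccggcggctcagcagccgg
HSPA6, a stress-induced HSP70 that is silent in most unstressed cells, had the only heat-shock element among the members (chr1:161524436-161524508, plus strand), in capitals on the strand opposite to the searched letters. KCNN4, a calcium-activated potassium channel of lymphocytes and epithelia, had 3 kappa-B matches that overlap into 2 blocks, in capitals (chr19:43781023-43781111, minus strand).
HSPA6: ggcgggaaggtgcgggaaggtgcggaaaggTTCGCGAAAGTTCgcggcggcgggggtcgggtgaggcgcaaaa
KCNN4: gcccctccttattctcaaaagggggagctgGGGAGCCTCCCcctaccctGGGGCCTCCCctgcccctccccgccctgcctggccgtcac
TSPAN10 was at 309, 147 and 158 with DMSO, 754, 478 and 298 with MI-1061 and 1227, 1269.7 and 1276 with NCS and at 12084, 12719 and 12340.1 with both agents. DHRS2 (chromosome 14, 23630115 to 23645639) was at 89.7, 246 and 91.1 with DMSO, 742, 999 and 707 with MI-1061 and 144, 161 and 128 with NCS and at 7150.4, 9396 and 7565 with both, so that NCS alone left it among the DMSO libraries while MI-1061 alone did not. KITLG (chromosome 12, 88492793 to 88580471) was at 1811, 672 and 917 with DMSO, 3137, 4968 and 4626 with MI-1061 and 1662, 1086 and 1288 with NCS and at 13852, 11887 and 12540.00 with both. HSPA6 (chromosome 1, 161524540 to 161526894), named for its promoter and not by its change, was at 116, 29.8 and 78.8 with DMSO, 95.2, 253 and 123 with MI-1061 and 217, 93.96 and 135 with NCS and at 649.8, 732 and 589 with both, and its reads may be shared with the near-identical HSPA7. KCNN4 (chromosome 19, 43766533 to 43780973) was at 158, 213 and 198 with DMSO, 228, 459 and 188 with MI-1061 and 395, 481 and 342 with NCS and at 1678, 1291 and 950.3 with both.

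The comparison of NCS with MD-224 against MD-224 alone asks whether NCS also raises these genes in cells that receive the degrader, and its 6 libraries played no role in choosing the members. All 253 members were tested. Of these 159 rose, which is 62.8% of the members beside 39% of all 3073 tested genes. VCAN alone fell, beside 0.586% of all tested genes, and 93 members did not pass the adjusted p of 0.05. The median fold was 2.22 among the members and 1.36 among all tested genes. All 3 NCS with MD-224 libraries lay above all 3 with MD-224 in 168 members (66.4%), beside 48.5% of all genes, and all 3 lay below in VCAN only, beside 1.89%. The scaling bears on these counts: with TMM factors over the listed genes the median log2 change of all genes moved by -0.44, and 428 genes were called higher and 223 lower, of which 107 and 2 were members. On that scale the members' median log2 change was 0.70 and that of all genes 0.00. These factors centre the listed genes, so a rise that most of them share is removed by the scaling.

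**Figure D4:**
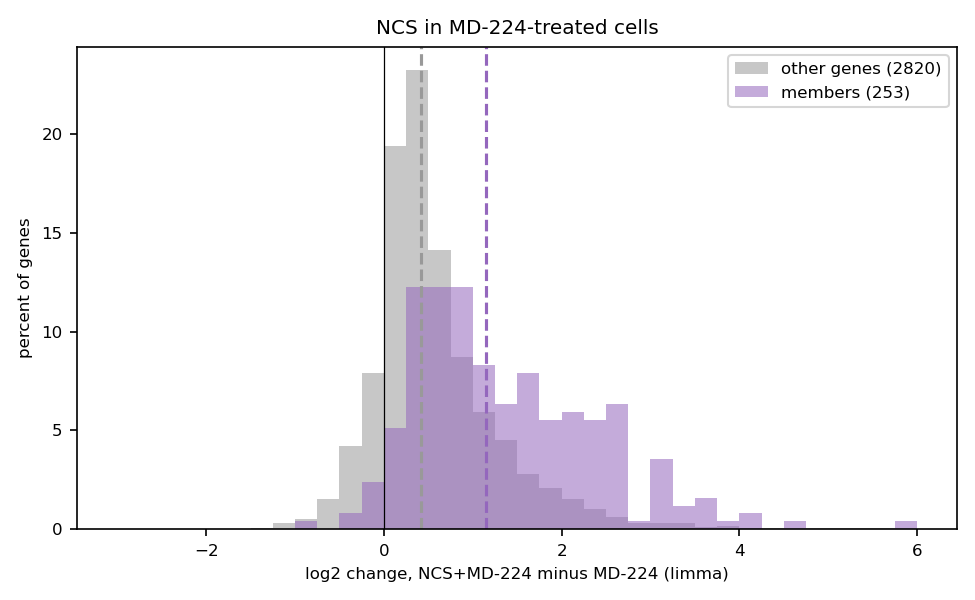
Distribution of the log2 change of NCS with MD-224 minus MD-224 from limma (horizontal), as percent of genes (vertical), for the 253 members and the 2820 other tested genes. Dashed lines are the medians, 1.15 for the members and 0.42 for the other genes.

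By their response to single agents, 45 of the 90 members that responded to neither (50%) rose in this comparison, and 1 fell, beside 39% and 0.586% of all tested genes. Among those that responded to MI-1061 only it was 35 of 52 (67.3%), to NCS only 20 of 30 (66.7%), and to each of the 2 agents 59 of 81 (72.8%). The median folds were 1.603, 2.18, 2.96 and 3.26 in the same order, beside 1.36 over all tested genes. In 93 members the change did not pass, with 95% intervals that ran from a log2 of -1.23 to 3.72 over these genes, so a missing call does not show equal levels. The median standard error of the members was 0.33 on the log2 scale.

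The smallest adjusted p belonged to BCL2A1 (chromosome 15, 79960892 to 79971196), a BCL2-family protein that protects against apoptosis. It was at 9.85, 5.77 and 2.05 with DMSO, 11.6, 16.8 and 15.4 with MI-1061 and 37.3, 61.6 and 53.95 with NCS, at 167, 182 and 167 with NCS and MI-1061, and at 1.15, 0.64 and 1.05 with MD-224 and 99.1, 83.1 and 137 with NCS and MD-224. The MD-224 libraries were lower than any others, and the NCS with MD-224 libraries lay between those with NCS alone and those with NCS and MI-1061. It rose with NCS in MD-224 cells (log2 5.76, SE 0.40; adjusted p = 1.39e-07). That fold rests on 3 reads in the 3 MD-224 libraries against 229 in the 2 NCS with MD-224 libraries with recovered reads, a ratio per library of 133 (95% interval 45.0 to 651, counting error only). With a pseudocount of 5 the log2 change was 4.20.

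GRM8, a metabotropic glutamate receptor that lowers cyclic AMP, was next. It was at 42.7, 48.1 and 66.5 with DMSO, 84.9, 127 and 105 with MI-1061 and 44.2, 30.01 and 29.1 with NCS, at 576, 659.5 and 592 with both agents, and at 2.29, 5.15 and 6.28 with MD-224 and 91.7, 54.1 and 58.7 with NCS and MD-224. The 3 MD-224 libraries were below every DMSO library, and it rose with NCS into the range of the DMSO libraries and above (log2 3.67, SE 0.33; adjusted p = 1.05e-06). With a pseudocount of 5 the log2 change of GRM8 was 2.92. POU3F2, a POU-domain factor of neural precursors, was at 64.3, 63.1 and 67.01 with MD-224 and 524, 409 and 318 with NCS and MD-224 and rose (log2 2.64, SE 0.26; adjusted p = 2.63e-06), beside 1873, 1826 and 1761 with NCS and MI-1061. STON2, an endocytic adaptor, was at 202, 300.1 and 186 with MD-224 and 1209.6, 866 and 905 with NCS and MD-224 (log2 2.13, SE 0.21; adjusted p = 2.63e-06) and at 5182, 5461 and 5339 with NCS and MI-1061. ARVCF, a catenin of the p120 family at cadherin junctions, was at 337, 341 and 364 with MD-224 and 2419, 1439 and 1142 with NCS and MD-224 (log2 2.19, SE 0.23; adjusted p = 5.23e-06) and at 9651, 11268 and 9897 with NCS and MI-1061. In these genes the libraries with NCS and MD-224 stood above those with MD-224 and below those with NCS and MI-1061, without overlap.

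The counts of lists that follow are to be read beside the 39% of all tested genes called higher and the median of 1.36-fold. Genes skipped by their symbol, such as SFN, AREG, IL1A and IL1B, could not be members of any list. The number of members on a list is therefore set in part by those skips, and its absence of members does not show that no gene met the limits. KITLG stood at 866, 749 and 651 with MD-224 and 4269, 2395 and 3104 with NCS and MD-224 and rose (log2 2.08, SE 0.29; adjusted p = 4.66e-05). FGF9, a growth factor for mesenchymal cells, was at 163, 200.1 and 216 with both agents and at 9.18, 15.5 and 18.8 with MD-224 and 48.5, 41.5 and 14.2 with NCS and MD-224. Its change did not pass (log2 1.09, adjusted p = 0.0739), and it passed without NCS with MD-224 replicate 3, its lowest library (log2 1.62, adjusted p = 0.012). Of 22 listed genes for cytokines, chemokines and growth factors FGF9 was the only member, and 13 of the 22 (59.1%) rose in this comparison and 1 fell, with a median of 2.16-fold.

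Of 32 listed ion channels 6 were members, and 17 of the 32 (53.1%) rose and 1 fell (median 1.68-fold). KCNA7, a voltage-gated potassium channel, was at 10.9, 15.4 and 5.12 with DMSO, 93.9, 391 and 317 with MI-1061 and 29.4, 43.4 and 21.8 with NCS. Both agents gave 962, 753 and 830.3, against 17.2, 25.1 and 15.7 with MD-224 and 176, 86.8 and 91.1 with NCS and MD-224. KCNA7 rose with NCS in MD-224 cells (log2 2.50, SE 0.48; adjusted p = 0.000669). KCNQ3, a subunit of the M-current that damps firing in neurons, stood at 2248, 2324 and 2502 with both agents and at 307, 132 and 178 with MD-224 and 1138, 887 and 1192 with NCS and MD-224, and rose (log2 2.45, SE 0.25; adjusted p = 3.11e-06). KCNN4 stood at 204, 424 and 311 with MD-224 and 1256, 921 and 877 with NCS and MD-224 and rose (log2 1.74, SE 0.32; adjusted p = 0.000444), and it is 1 of 6 members whose libraries with NCS and MD-224 reached into the range of NCS with MI-1061. SCN4B, a beta subunit of sodium channels, was at 66.5, 165 and 88.99 with MD-224 and 410.2, 263 and 139 with NCS and MD-224, with overlap, and its call (log2 1.30, adjusted p = 0.0164) was lost with TMM factors (log2 0.86, adjusted p = 0.129). It was also lost without NCS with MD-224 replicate 1 (log2 0.94, adjusted p = 0.107), MD-224 replicate 1 (log2 1.02, adjusted p = 0.0776) or MD-224 replicate 3 (log2 1.22, adjusted p = 0.055). SCN3B, a beta subunit named as a p53 target, had a log2 change of 0.76 that did not pass (adjusted p = 0.0959). KCNA2 did not pass either, at 6.88, 10.9 and 10.5 with MD-224 and 37.96, 28.2 and 2.03 with NCS and MD-224 (log2 0.56, adjusted p = 0.569), and its sign depended on single libraries. Without NCS with MD-224 replicate 3, the lowest, KCNA2 passed (log2 1.72, adjusted p = 0.0265), and without NCS with MD-224 replicate 1, the highest, the change was a log2 of -0.13 (adjusted p = 0.92).

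SEMA3B (chromosome 3, 50260226 to 50277546), a secreted semaphorin and known p53 target, was at 99.6, 427 and 319 with DMSO, 796, 1200.4 and 1251 with MI-1061 and 532, 799 and 649.9 with NCS. Both agents gave 10333, 15672 and 12866, against 571, 1239 and 977 with MD-224 and 2392, 2109 and 1335 with NCS and MD-224. The change in MD-224 cells was called (log2 1.09, adjusted p = 0.0422), but not with TMM factors (log2 0.65, adjusted p = 0.285). With 1 library fewer the SEMA3B change stayed between a log2 of 0.78 and 1.17 where the call was lost, which was without NCS with MD-224 replicate 1 (adjusted p = 0.151) or 2 (0.102) and without MD-224 replicate 1 (0.176) or 3 (0.0725). SEMA3B was also not called in the edgeR count test (log2 1.00, adjusted p = 0.0641). Nor was it called without replicate 1, 2 or 3 of every group (adjusted p = 0.081, 0.0572 and 0.124). PLXNB3, a semaphorin receptor, was at 345, 362 and 361 with DMSO, 868, 944 and 752 with MI-1061 and 1049.9, 904 and 1107 with NCS. Both agents gave 7573, 8574 and 6750.5, against 958, 1199.6 and 1018 with MD-224 and 2631, 2333 and 1763 with NCS and MD-224. PLXNB3 rose with NCS in MD-224 cells (log2 1.07, SE 0.16; adjusted p = 7.49e-05). DRAXIN, a secreted repellent of growing axons, was at 24.1, 44.2 and 24.6 with DMSO, 198, 307 and 226 with MI-1061 and 29.4, 25.3 and 22.4 with NCS. Both agents gave 2689.7, 4102 and 2979, against 22.9, 34.8 and 8.38 with MD-224 and 167, 169 and 39.5 with NCS and MD-224. It rose (log2 2.39, SE 0.50; adjusted p = 0.00142), and more so without NCS with MD-224 replicate 3, which was well below the other 2 (log2 3.08).

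SEMA3B, PLXNB3 and DRAXIN were the members among 22 listed genes for axon guidance and synapse, of which 10 (45.5%) rose and none fell (median 1.65-fold). NPTX1, a pentraxin that clusters glutamate receptors, was at 233, 59.6 and 127 with DMSO, 165, 193 and 178 with MI-1061 and 343, 325 and 486 with NCS. Both agents gave 2309, 2314 and 2787, against 71.1, 59.2 and 77.5 with MD-224 and 673, 465 and 769 with NCS and MD-224. NPTX1 rose (log2 3.16, SE 0.34; adjusted p = 5.55e-06). The neurofilament genes NEFL and NEFM lie side by side on chromosome 8. NEFL, the light chain, was at 1403, 2257 and 1946 with DMSO, 11235, 20176 and 14488 with MI-1061 and 6172, 6427 and 6473 with NCS. Both agents gave 67562, 60458 and 74923, against 7927, 9406 and 9796 with MD-224 and 30443, 19398 and 19555 with NCS and MD-224. NEFL rose with NCS in MD-224 cells (log2 1.33, SE 0.21; adjusted p = 0.000138). NEFM, the medium chain, was at 274, 386 and 344 with both agents and at 45.9, 90.1 and 90.04 with MD-224 and 109.7, 101 and 83.03 with NCS and MD-224, and its change did not pass (log2 0.43, adjusted p = 0.419). ACHE, the acetylcholinesterase of synapses, was at 48.1, 69.2 and 61.4 with DMSO, 255, 386 and 203 with MI-1061 and 335, 321 and 315 with NCS. Both agents gave 2946, 3353 and 2756, against 209.97, 200.3 and 166 with MD-224 and 731, 455 and 408 with NCS and MD-224. ACHE rose with NCS in MD-224 cells (log2 1.42, SE 0.24; adjusted p = 0.00028). NEFL and NEFM were the members among 5 listed endothelial and neural markers, of which 2 (40%) rose and none fell (median 1.35-fold). GFAP was the only one of 4 neural markers (GFAP, SNAP25, STMN2, SYP) in the table, at 5.47 to 18.4 with DMSO, 64.6 to 89.9 with MI-1061, 24.5 to 34.4 with MD-224, 36.3 to 44.2 with NCS, 51.9 to 76.98 with NCS and MD-224 and 42.7 to 58.6 with both agents, and its part in these results was not tested.

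Of 27 listed secreted proteases and inhibitors 19 (70.4%) rose and none fell (median 2.16-fold), and the 3 members among them rose. TIMP3, a matrix-bound inhibitor of metalloproteinases, was at 8916, 11473 and 6580.4 with DMSO, 9194, 10065 and 5630.1 with MI-1061 and 17289.7, 13088 and 13372 with NCS. Both agents gave 66219, 52703 and 53171, against 7099.9, 9458 and 6969.8 with MD-224 and 29997, 15234 and 22369 with NCS and MD-224. TIMP3 rose (log2 1.48, SE 0.25; adjusted p = 0.000253). SERPINB7, an intracellular serpin of keratinocytes and kidney, was at 746, 53.8 and 98.2 with DMSO, 543, 168 and 89.1 with MI-1061 and 697, 533 and 609 with NCS. Both agents gave 4061, 4463 and 5440.4, against 391, 34.8 and 90.04 with MD-224 and 1628, 900.3 and 1878 with NCS and MD-224. Replicate 1 of the DMSO, MI-1061 and MD-224 groups was several times above replicates 2 and 3 for SERPINB7, and its log2 change of 3.69 (adjusted p = 0.00262) was 4.62 without MD-224 replicate 1 and 2.89 without MD-224 replicate 2, and the call was lost without replicate 3 of every group (log2 3.35, adjusted p = 0.0848). AOX1, an aldehyde oxidase, had the same uneven libraries, with 2810.2, 285 and 562 with DMSO, 2466, 1073 and 884 with MI-1061 and 4413, 2708 and 4238 with NCS, 13248, 9382 and 11474 with both agents and 2138, 185 and 567 with MD-224 and 7968, 4024 and 9099.8 with NCS and MD-224. Its log2 change of 3.45 (adjusted p = 0.00182) was 4.35 without MD-224 replicate 1 and 2.59 without MD-224 replicate 2, and the call was likewise lost without replicate 3 of every group (log2 3.17, adjusted p = 0.0833).

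DSP, the desmoplakin that ties keratin filaments to desmosomes, was at 2212, 2994 and 2921 with DMSO, 1519, 3053 and 1958 with MI-1061 and 5044, 5641 and 6316 with NCS. Both agents gave 22683, 22642 and 25865, against 2696, 3349.6 and 3625 with MD-224 and 10165, 7275 and 11196 with NCS and MD-224. DSP rose with NCS in MD-224 cells (log2 1.55, SE 0.21; adjusted p = 4.05e-05). It was the only member among 18 listed genes of epithelial junctions and barrier, of which 7 (38.9%, the share of all tested genes being 39%) rose and none fell (median 1.62-fold). COL4A5, a basement-membrane collagen chain, was at 21759, 22268 and 22750.3 with both agents and at 9149, 6736 and 8899 with MD-224 and 13335, 10420.5 and 10614 with NCS and MD-224, a change at the threshold (log2 0.48, adjusted p = 0.05). With TMM factors the COL4A5 change was near 0 (log2 0.03, adjusted p = 0.943). The call was also lost, at log2 changes of 0.34 to 0.54, without any 1 of the 3 NCS with MD-224 libraries (adjusted p = 0.2, 0.0551 and 0.0624 without replicates 1, 2 and 3) and without MD-224 replicate 2 (0.193) or 3 (0.066). Nor was COL4A5 called in the edgeR and DESeq2 count tests (adjusted p = 0.06055 and 0.05921). Without replicate 1, 2 or 3 of every group its adjusted p was 0.168, 0.0617 and 0.138, and with no filter on low values it was 0.05001. VCAN, the large proteoglycan versican, was the member that fell. It was at 6577, 12339.7 and 10440.4 with DMSO, 6513, 9026 and 12049 with MI-1061 and 7004, 8751 and 7622 with NCS. Both agents gave 32379, 34459.5 and 30956, against 13402, 15042 and 17673 with MD-224 and 11155, 11666 and 5250.1 with NCS and MD-224 (log2 -0.79, SE 0.28; adjusted p = 0.0294). The call was lost without NCS with MD-224 replicate 3, its lowest library (log2 -0.42, adjusted p = 0.176), and without MD-224 replicate 2 (log2 -0.81, adjusted p = 0.0549) or 3 (log2 -0.69, adjusted p = 0.105). It was also lost without replicate 3 of every group (log2 -0.32, adjusted p = 0.4235). The same held in a fit of only the compared groups (log2 -0.79, adjusted p = 0.0544) and in the edgeR count test (log2 -0.91, adjusted p = 0.0539).

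NLRP1 (chromosome 17, 5501396 to 5584509), a sensor that builds inflammasomes, was at 758, 658 and 717 with DMSO, 1497, 1542 and 1572 with MI-1061 and 1591, 1512 and 1679 with NCS. Both agents gave 9923, 9037 and 8916, against 1511, 1359 and 1449 with MD-224 and 3454, 2585 and 2702 with NCS and MD-224. NLRP1 rose (log2 1.01, SE 0.12; adjusted p = 1.11e-05), with little spread within groups. PTPN22 rose in MD-224 cells from the levels given above (log2 2.52, SE 0.33; adjusted p = 2.34e-05), and so did SH2D2A (log2 3.36, SE 0.43; adjusted p = 2.34e-05). CASP10, an initiator caspase downstream of death receptors, was at 101, 136 and 129 with DMSO, 177, 499 and 358 with MI-1061 and 200.2, 253 and 218 with NCS. Both agents gave 1296, 2279.9 and 1374, against 207, 288 and 174 with MD-224 and 348, 404 and 261 with NCS and MD-224. Its change did not pass (log2 0.61, adjusted p = 0.141), and it passed with the replicate number as a block (adjusted p = 0.0393). NLRP1, CASP10 and BCL2A1 are 3 of 12 listed for inflammasome, caspases and cell death, of which 6 (50%) rose and none fell (median 1.58-fold).

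APOBEC3C, a cytidine deaminase that restricts retroviruses, was the only member among 14 listed genes of the interferon response and nucleic acid sensing, of which 6 (42.9%, near the 39% of all tested genes) rose and none fell (median 1.25-fold). It was at 905, 1089.8 and 929 with DMSO, 2965, 4210.4 and 3679.6 with MI-1061 and 1442, 1653 and 1379 with NCS. Both agents gave 10865, 12579 and 10773, against 2099.7, 2912 and 1889.8 with MD-224 and 4453, 3948 and 2847 with NCS and MD-224. APOBEC3C rose (log2 0.70, SE 0.18; adjusted p = 0.0057). The latter libraries overlapped, and with TMM factors the change was not called (log2 0.26, adjusted p = 0.286). Nor was it called without replicate 1 of every group (log2 0.52, adjusted p = 0.11). The edgeR and DESeq2 count tests did not call it either (both log2 0.67, adjusted p = 0.0801 and 0.0651). RAC2, a small GTPase of blood cells, was at 744, 762 and 519.7 with DMSO, 535, 531 and 283 with MI-1061 and 764, 1086 and 823 with NCS. Both agents gave 2668, 3284 and 2391, against 606, 1007 and 621 with MD-224 and 1299, 1330.5 and 1394 with NCS and MD-224. RAC2 rose (log2 0.89, SE 0.25; adjusted p = 0.00964), but at a log2 of 0.44 and an adjusted p of 0.217 with TMM factors. The RAC2 call was also lost without replicate 1 (log2 0.78, adjusted p = 0.1045) or 3 (log2 0.75, adjusted p = 0.0808) of every group. It was the only member among 12 listed haematopoietic and myeloid genes, of which 6 (50%) rose and none fell (median 1.70-fold). Of 8 haematopoietic markers CD68, ITGAM and LAPTM5 were in the table, none of them a member. Their summed counts were 439.9 to 1111 with DMSO, 2412 to 3052 with MI-1061, 783.1 to 1085 with MD-224, 2302 to 2498 with NCS, 4852 to 4962 with both agents, and 3418 to 4506 after NCS with MD-224, and their part in these results was not tested.

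Of 19 listed genes of the immediate early kind, AP-1 and MAPK feedback 2 were members, and 13 of the 19 (68.4%) rose and none fell (median 1.89-fold). EGR2, a zinc finger factor of myelinating cells, was at 24.1, 86.5 and 6.14 with DMSO, 56.6, 355 and 231 with MI-1061 and 279.6, 177 and 202 with NCS. Both agents gave 849, 864 and 739.7, against 58.5, 194 and 53.4 with MD-224 and 408, 245 and 301 with NCS and MD-224. Replicate 2 with DMSO, MI-1061 and MD-224 was several times replicate 1. Its change missed the threshold (log2 1.86, adjusted p = 0.0501), and it passed with the replicate number as a block (0.0254) and without MD-224 replicate 2 (log2 2.46, adjusted p = 0.0205). EGR2 also passed with a pseudocount of 5 (adjusted p = 0.0365) and in the edgeR (0.0404) and DESeq2 (0.00559) count tests. The same held in a fit of only the compared groups (0.0153) and without replicate 2 of every group (0.00829). In the other alternatives it did not pass.

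Of 45 listed p53 targets 28 (62.2%) rose and 1 fell in this comparison (median 1.54-fold), and the 4 members among them rose, CES2, KITLG and NINJ1 included. CES2, a carboxylesterase, was at 1492, 1585 and 1484 with DMSO, 3104, 4221 and 3758 with MI-1061 and 2554, 2497 and 2415 with NCS. Both agents gave 13276, 16020.2 and 12419, against 2787, 3426 and 2818 with MD-224 and 5454, 4916 and 3672 with NCS and MD-224. CES2 rose (log2 0.62, SE 0.15; adjusted p = 0.00363). With TMM factors CES2 was at a log2 of 0.18 and was not called (adjusted p = 0.359). Nor was it called in the edgeR count test (log2 0.60, adjusted p = 0.0563) or without replicate 1 of every group (log2 0.45, adjusted p = 0.0778). NINJ1, a membrane protein that ruptures dying cells, was at 1278, 753 and 829 with DMSO, 1286, 2536 and 1394 with MI-1061 and 1799.5, 1802 and 1729 with NCS. Both agents gave 5642, 6667 and 5937, against 1648, 1919 and 1657 with MD-224 and 3282, 2565 and 2505 with NCS and MD-224 (log2 0.67, adjusted p = 0.0231). Its call was lost, at log2 changes of 0.55 to 0.64, without NCS with MD-224 replicate 1 (adjusted p = 0.108) or MD-224 replicate 1 (0.061) or 3 (0.0695), and with TMM factors (log2 0.22, adjusted p = 0.452). RRAD, SEMA3B, SCN3B and TP53I11, which have also been described as p53 targets, were not on that list. Of these RRAD rose from 89.5, 156 and 46.1 to 1380.4, 880.3 and 892 (log2 3.56, SE 0.38; adjusted p = 5.23e-06), and TP53I11, at 3140.3, 4035 and 4162 with MD-224 and 5101, 4323 and 2479.7 with NCS and MD-224, did not pass (log2 0.02, adjusted p = 0.963).

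MYOM3, a myomesin of the sarcomere M-band, was at 26.3, 7.69 and 10.2 with DMSO, 28.3, 45.6 and 32.3 with MI-1061 and 93.2, 69.5 and 44.3 with NCS. Both agents gave 401, 321 and 353, against 29.8, 21.9 and 31.4 with MD-224 and 198, 133 and 179 with NCS and MD-224. MYOM3 rose (log2 2.57, SE 0.38; adjusted p = 8.66e-05). MYOM3 was the only member among 13 listed genes of striated muscle, of which 9 (69.2%) rose and none fell (median 3.31-fold). The 4 muscle markers MYOD1, MYOG, DES and ACTA1 were not in the table and are not analysed here. ALOXE3, a lipoxygenase-type enzyme of the skin barrier, was at 18.6, 13.5 and 2.05 with DMSO, 29.6, 23.98 and 30.7 with MI-1061 and 95.2, 81.3 and 87.9 with NCS. Both agents gave 712, 650.05 and 509, against 11.5, 7.73 and 4.19 with MD-224 and 233, 140.2 and 199 with NCS and MD-224. ALOXE3 rose (log2 4.51, SE 0.51; adjusted p = 6.9e-06). ALOXE3 was the only member among 8 listed genes for prostaglandin and leukotriene synthesis, of which 3 (37.5%) rose and none fell (median 1.42-fold). CYP2S1, a cytochrome P450 of epithelia, was at 349, 676 and 321 with both agents and at 69.99, 116 and 59.7 with MD-224 and 76.98, 68.2 and 48.6 with NCS and MD-224, and did not pass (log2 -0.30, adjusted p = 0.54), beside 5 of 13 listed P450 and xenobiotic genes that rose (38.5%, median 1.16-fold). The lists for EGF receptor ligands, TNF family genes and bone matrix had 6, 9 and 5 listed genes and no member, and 4, 6 and 4 of these rose. Genes skipped by their symbol, AREG among them, could not count as members.

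DCDC2C, a doublecortin-domain protein, PSG5, a pregnancy-specific glycoprotein, and ATP8A2, a lipid flippase, also rose. DCDC2C was at 6.88, 5.15 and 3.14 with MD-224 and 86.5, 66.7 and 74.9 with NCS and MD-224 (log2 3.71, SE 0.40; adjusted p = 5.23e-06, and log2 3.02 with a pseudocount of 5), PSG5 at 40.2, 39.3 and 19.9 with MD-224 and 484, 299 and 179 with NCS and MD-224 (log2 3.19, SE 0.39; adjusted p = 1.37e-05) and ATP8A2 at 383, 366 and 309.9 with MD-224 and 1209.6, 969 and 1064 with NCS and MD-224 (log2 1.61, SE 0.17; adjusted p = 5.23e-06). NIPAL4, a magnesium transporter of the skin, was at 181, 466 and 209 with MD-224 and 873, 854 and 451 with NCS and MD-224, with overlap, and its call (log2 1.41, adjusted p = 0.0189) was lost with TMM factors (log2 0.96, adjusted p = 0.124). It was also lost, at log2 changes of 1.15 to 1.26, without NCS with MD-224 replicate 1 (adjusted p = 0.0804) or 2 (0.0624) and without MD-224 replicate 1 (0.079) or 3 (0.0733). ODF3L1 (current symbol CIMAP1C), a sperm flagellum protein with an 11.6-fold excess over its largest other mean, was at 57.1, 137 and 74.6 with both agents and did not pass (log2 0.65, adjusted p = 0.35). ASB16 (log2 0.40, adjusted p = 0.299) and MUC3A (log2 0.59, adjusted p = 0.266) did not pass either, MUC3A passing without NCS with MD-224 replicate 3 (log2 1.16, adjusted p = 0.0197).

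RGAG1 rose from the levels given above (log2 2.63, SE 0.46; adjusted p = 0.000307), by a log2 of 3.22 without MD-224 replicate 2 and of 1.91 without MD-224 replicate 3, its lowest library, and PLCXD2 rose as well (log2 3.23, SE 0.35; adjusted p = 5.55e-06). TSPAN10 stood at 724, 452 and 525 with MD-224 and 4271, 3229 and 2503 with NCS and MD-224 (log2 2.55, SE 0.30; adjusted p = 1.2e-05), DHRS2 at 123, 218 and 109 with MD-224 and 1274, 1209.6 and 428 with NCS and MD-224 (log2 2.60, SE 0.40; adjusted p = 0.00012) and SDC1 at 5697, 6587 and 6172 with MD-224 and 15909, 11234 and 8798 with NCS and MD-224 (log2 0.92, SE 0.16; adjusted p = 0.000307). CEACAM1, an adhesion molecule with immune inhibitory signals, was at 797, 1607 and 796 with MD-224 and 4411, 2880.5 and 1649 with NCS and MD-224 and rose (log2 1.45, SE 0.37; adjusted p = 0.00491), a call lost with TMM factors (log2 1.00, adjusted p = 0.0528). The CEACAM1 call was also lost without replicate 1 of every group (log2 0.95, adjusted p = 0.124). CD82, a tetraspanin that suppresses metastasis, was at 2741, 3652 and 3309.5 with MD-224 and 10423, 8183 and 7562 with NCS and MD-224 (log2 1.43, SE 0.16; adjusted p = 6.28e-06), CRYAB rose from the levels given above (log2 2.30, SE 0.26; adjusted p = 7.33e-06), and FLNC stood at 13635, 8465 and 8120.4 with MD-224 and 49842, 24580.3 and 39992 with NCS and MD-224 (log2 1.90, SE 0.36; adjusted p = 0.000599). SPHK1, the kinase that makes sphingosine-1-phosphate, was at 2676, 1791 and 2154 with MD-224 and 12523, 7115 and 15214 with NCS and MD-224 (log2 2.35, SE 0.39; adjusted p = 0.000218). RETSAT, a retinol saturase, was at 5259.5, 5704 and 5915 with MD-224 and 10170.3, 8436 and 8323 with NCS and MD-224 (log2 0.67, SE 0.10; adjusted p = 0.00013), and AMOTL1 was at 4028, 3516 and 3770.2 with MD-224 and 6341, 5105 and 5264 with NCS and MD-224 (log2 0.56, SE 0.12; adjusted p = 0.00155). With TMM factors neither RETSAT (log2 0.22, adjusted p = 0.0898) nor AMOTL1 (log2 0.11, adjusted p = 0.495) was called. NUPR1, a stress-induced chromatin protein, was at 873, 2630.4 and 1324 with DMSO, 6260.00, 7739.7 and 6830.5 with MI-1061 and 3323, 3310.03 and 3876 with NCS. Both agents gave 19991, 22711 and 20029, against 3460.5, 5288 and 4403 with MD-224 and 6933, 6411 and 3159 with NCS and MD-224, with overlap (log2 0.27, adjusted p = 0.515).

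A few members had uneven libraries within their groups. ITM2A, a membrane protein of developing cartilage and T cells, was at 65.7, 185 and 77.8 with DMSO, 87.5, 148 and 98.4 with MI-1061 and 62.8, 153 and 58.2 with NCS. Both agents gave 655, 1844 and 699.7, against 122, 258 and 94.2 with MD-224 and 141, 306 and 92.1 with NCS and MD-224 (log2 0.14, adjusted p = 0.852). SYTL1, a Rab27-binding protein of secretion, was at 21.9, 79.8 and 12.3 with DMSO, 14.1, 108 and 29.2 with MI-1061 and 25.5, 52.1 and 52.7 with NCS. Both agents gave 274, 902 and 245, against 11.5, 79.8 and 18.8 with MD-224 and 70.7, 185 and 50.6 with NCS and MD-224. Replicate 2 was the highest library of ITM2A in all 6 groups and of SYTL1 in all but NCS alone. SYTL1 did not pass (log2 1.70, adjusted p = 0.108), and it passed with the replicate number as a block (0.00324) and without MD-224 replicate 2 (log2 2.49, adjusted p = 0.029). The count tests, which lacked NCS with MD-224 replicate 2, its highest library of that group, gave SYTL1 a log2 of 0.67 with edgeR and 0.70 with DESeq2 (adjusted p = 0.518 and 0.533). Replicate 2 was the highest of 3 in all 6 groups in 19 members (7.51%), beside 6.28% of all listed genes.

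With the degrader in place of the inhibitor the combined level was lower in every member. The NCS with MI-1061 mean was above the NCS with MD-224 mean in all 253, by a median of 3.497-fold (1.28 to 33.8), beside 1.59-fold over all listed genes. In 247 members all 3 libraries lay above all 3, beside 67.7% of listed genes. The exceptions were FAM196B, FAM180A, C11orf87, ESM1, KCNN4 and CECR7, named after their values were seen. Because NCS with MI-1061 chose the members, this comparison of the compounds carries no test. MD-224 alone was at least 2-fold above DMSO in 71 members (28.1%), beside 20.1% of listed genes, and at a median of 1.30-fold (1.39 over all).

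NCS with MD-224 was at least 2-fold above NCS alone in 98 members (38.7%), beside 9.43% of listed genes, with a median of 1.77-fold (1.24 over all). It was at least 2-fold above MD-224 alone in 143 (56.5%), beside 23% of listed genes. When the rule itself was repeated with MD-224, 17 members had an NCS with MD-224 mean of at least 3 times the largest of the DMSO, MD-224 and NCS means and of at least 50, beside 38 of all listed genes (1.24%). Those 17 included MYH16 at 8.56-fold, DACH2 at 6.73-fold, DHRS2 at 6.48-fold, HES2 at 4.97-fold, DRAXIN at 4.04-fold, POU3F2 at 3.79-fold and PLCXD2 at 3.76-fold. The NCS libraries are shared with the choice of members, so these shares are descriptions. Across the 253 members the log2 fold with NCS in MI-1061 cells and in MD-224 cells had a Spearman correlation of 0.33 and a Pearson correlation of 0.40, and across all 3074 genes of 0.22 and 0.30. The points are genes of the same libraries and are not independent. The rule chose the members on the fold in MI-1061 cells, so the correlations of members and of all genes cannot be compared.

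**Figure D5:**
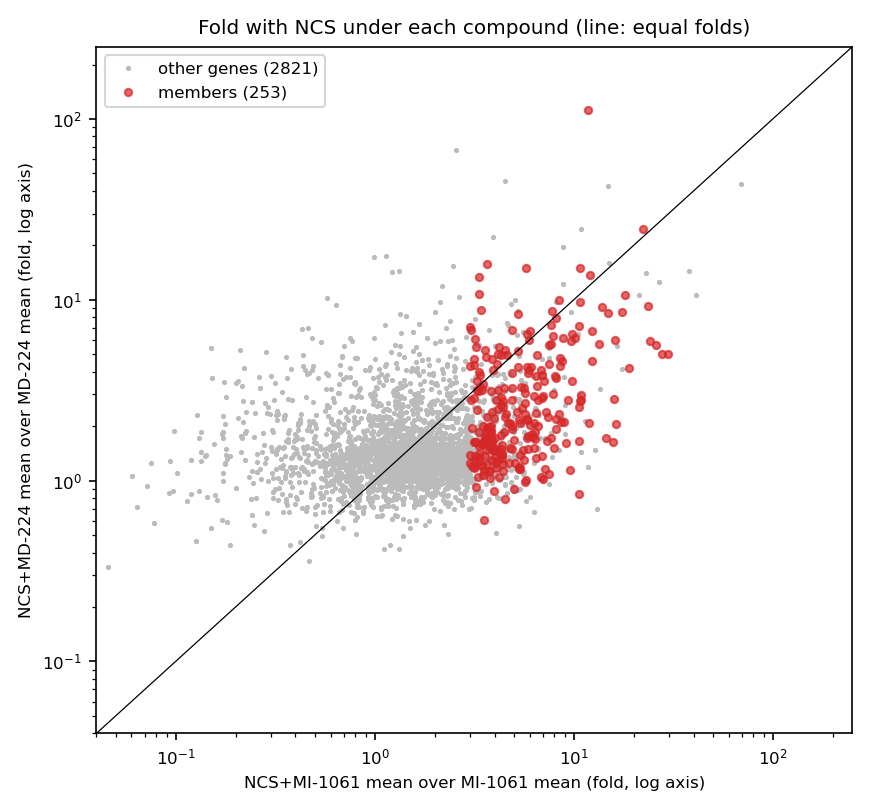
Fold of NCS with MD-224 over MD-224 (vertical, log axis) against fold of NCS with MI-1061 over MI-1061 (horizontal, log axis), both of group means, for the 253 members and 2821 other genes, with the line of equal folds. Members begin at 3-fold on the horizontal axis by the rule, most lie below the line, BCL2A1 is the member farthest above it, and 2 genes fall outside the axes.

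The rule was also applied to 2 replicate numbers at a time and read in the third. The members themselves were chosen on all 3, so the third is not an independent set. Without replicate 1 it chose 237 genes, of which 188 (79.3%) were at least 3-fold above the largest other library in replicate 1, beside 10.995% of all listed genes. Without replicate 2 it chose 246, and 184 (74.8%) were 3-fold in replicate 2, beside 9.01%. Without replicate 3 it chose 271, and 187 (69.0%) were 3-fold in replicate 3, beside 8.30%. The median folds in the held-out libraries were 4.23, 3.92 and 3.60, and 222, 220 and 244 of the chosen genes were members. The genes had been proposed with all libraries known, so this is a description of their spread and not a test.

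The members lay on 22 chromosomes, with 34 on chromosome 1 and 22 on chromosome 2. RefSeq coordinates were found for 251, and 241 members are protein-coding genes. Of the 251, 122 (48.6%) had another listed gene within 100 kb, beside 54.0% of listed genes. Within that distance 29 members formed 16 pairs of members. Pairs in a like number of other listed genes were not counted, so nothing is read from these 16. COL4A5 and COL4A6 lie 0.38 kb apart on chromosome X, head to head in the way this collagen pair is known to share a promoter region. COL4A6 was at 47.1, 14.4 and 16.4 with DMSO, 93.9, 156 and 138 with MI-1061 and 100.1, 44.2 and 100.03 with NCS. Both agents gave 555, 515 and 573, against 39.01, 54.7 and 37.7 with MD-224 and 295, 121 and 309 with NCS and MD-224. COL4A6 rose (log2 2.34, SE 0.44; adjusted p = 0.000576). On chromosome 19 CGB7, a chorionic gonadotropin beta gene, NTF4, a neurotrophin, and KCNA7 follow each other, with 9.65 kb between CGB7 and KCNA7. NTF4 was at 6.57, 21.1 and 13.3 with DMSO, 50.2, 142 and 115 with MI-1061 and 38.3, 33.2 and 35.2 with NCS and at 475, 381 and 404 with both agents, and CGB7 at 2.19, 7.69 and 2.05 with DMSO, 64.3, 171 and 206 with MI-1061 and 22.6, 26.1 and 16.97 with NCS and at 414, 636 and 381.

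RRAD and CES2 lie 8.94 kb apart on chromosome 16, and C2orf66 and PGAP1 0.865 kb apart on chromosome 2. PGAP1, which remodels GPI anchors, was at 1289, 1694 and 1721 with DMSO, 989, 1476 and 1174 with MI-1061 and 1040.1, 961 and 1118 with NCS and at 4883, 6125 and 5099 with both agents, and C2orf66, its small neighbour, at 6.57, 6.73 and 24.6 with DMSO, 33.4, 64.8 and 33.8 with MI-1061 and 21.6, 11.1 and 14.5 with NCS and at 179, 255 and 136. The labels do not say that counting used strand, so reads of overlapping or adjoining genes such as ODF3L1 and DNM1P35, which overlap by 18 bases, cannot be told apart. Reads of near-identical copies are uncertain in the same way, which bears on CGB7, PSG5, HSPA6, ANXA8 with ANXA8L1, GGT1 and USP32P1. COL4A6, NTF4, CGB7, PGAP1 and C2orf66 were named for their positions.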

How the data were processed

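The authors deposited normalised counts (unit: signal) for 3074 genes in 18 libraries. These are taken as read counts divided by one size factor per library, which was checked in 13 libraries only. Per the submitters' processing notes the tools were featureCounts 1.6.3, HISAT2 2.0.5.2 and, in version 2.11.40.6, DESeq2, with build GRCh38, but no role is given for any of them. The treatment protocol spells the inhibitor with other digits than the sample titles, which were followed. Values enter as log2(value + 1), so fold changes of low genes are understated. Genes with at least 10 in at least 3 libraries were fitted with limma 3.58.1 in R 4.3.3, with a trended variance and a single fit over 6 groups. Two-sided p-values were adjusted by Benjamini-Hochberg over all 3073 genes tested and called under 0.05. Only NCS with MD-224 against MD-224 was tested, since its libraries did not choose the members. Residuals of like-numbered libraries of these groups correlated at 0.203, 0.380 and 0.135 across genes, and those of unlike-numbered libraries at -0.344 to 0.164. The main fit, which gave the values printed, did not pair the replicates. The fit with the replicate number as a block is an alternative, given where it changes a call. In 13 libraries values up to 2000 reads were whole multiples of 1 read (tolerance 0.01). The count tests, edgeR 4.0.16 and DESeq2 1.42.0, were run on these reads, without NCS with MD-224 replicate 2, whose reads were not recovered. Reads were also not recovered for NCS replicate 3 or for any library with NCS and MI-1061. Symbols were matched to RefSeq for GRCh38.p14: 235 members by symbol, 16 by an older symbol and 2 not at all. Scripts were tested on simulated data. Python 3.11.15 with matplotlib 3.10.9 drew the figures. The members and the 17 gene lists were chosen with earlier results of these data known. Named genes are the 15 members with the highest mean and the 15 with the largest fold, the 12 with the smallest adjusted p, every member of a list, and the 3 genes on each side of the 3-fold limit. Others are marked where they appear. Some genes that meet this rule are not reported here.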

Additional observations from a re-analysis of the deposited data

Results flagged for a closer look

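VCAN, the proteoglycan versican, had libraries that moved in opposite directions with NCS under the 2 compounds. The call of its fall with MD-224 was lost in several alternatives, given above. All 3 libraries with NCS and MI-1061 (32379, 34459.5 and 30956) lay above all 3 with MI-1061, and all 3 with NCS and MD-224 lay below all 3 with MD-224, with a log2 change of -0.79. The difference between the 2 changes was not tested, and VCAN was chosen as a member by the NCS with MI-1061 libraries.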

How the results depend on the processing

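The comparison of NCS with MD-224 against MD-224 called 1216 genes, of which 160 were members. With TMM factors over the listed genes it called 651 genes, and without replicate 3 of every group 476, of which 109 and 115 were members. The cause of the second change was not tested. Leaving out 1 library or 1 replicate number gave 476 to 1128 genes and 115 to 174 members. With the replicate number as a block there were 1512 genes and 182 members, 181 of them higher, including all 159 called without it. The block changed the calls of CASP10, EGR2 and SYTL1 among the 65 named genes and no other. EdgeR called 833 higher and 14 lower (133 members higher), and DESeq2 943 and 22 (146 members higher, 1 lower), both chosen after seeing the data. The rule itself gave 620 members at 2-fold, 128 at 4-fold and 70 with TMM factors, and 221 to 291 when a library or replicate number was left out. Of 51 named genes called, 37 kept their call in all 17 alternatives, and no named gene that was called changed direction. For some named genes only part of the alternatives that changed a call are given above. Count tests on all 6 libraries compared were not run. Low counts limit BCL2A1, and the lack of independent cultures in the labels limits every p-value.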
